A study of Mus musculus with 26 samples.

Results

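The genes described here carry purinergic signalling, the communication between cells by extracellular nucleotides and adenosine. They were taken by name, though the list was chosen with earlier results of these data known. They are the ADP receptors P2ry12 and P2ry13, the UDP receptor P2ry6, the ATP-gated channels P2rx4 and P2rx7, the adenosine receptors Adora2a and Adora3, and the ectonucleotidase Entpd1. Probes were assigned through their transcript accession, and the brightest probe by mean over the 26 arrays stood for each gene. All 8 genes were measured, among 24738 genes tested.

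Damaged or active cells release ATP, which opens P2X channels at the cell surface. Ectonucleotidases such as the product of Entpd1 (CD39) cut ATP and ADP down to AMP, which other enzymes turn into adenosine, the ligand of the Adora receptors. In the brain, P2ry12 is a marker of resting microglia and steers their processes towards sites of injury, P2ry6 is known for the uptake of debris by microglia, and P2rx7 is a trigger of the Nlrp3 inflammasome and of the release of the cytokine encoded by Il1b.

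The cells were EGFP-positive microglia, sorted by flow cytometry from punches (1.5 mm) of the nucleus accumbens (NAc) or the medial prefrontal cortex (mPFC) of C57BL/6 mice. All mice carried CX3CR1EGFP/+, an allele that places EGFP in the fractalkine receptor gene, and the TLR-DKO mice carried TLR-DKO in addition, which the labels do not spell out and which the published study describes as loss of Tlr2 and Tlr4. Stressed mice went through repeated social defeat stress (R-SDS), and naive mice were only moved between cages; both were perfused 1.5 hours after the last session. The labels call stressed wild-type (WT) mice susceptible and stressed TLR-DKO mice resilient. The NAc gave 4 TLR-DKO R-SDS, 3 TLR-DKO naive, 3 WT R-SDS and 3 WT naive samples, and the mPFC gave 3 TLR-DKO R-SDS, 4 TLR-DKO naive, 3 WT R-SDS and 3 WT naive samples. Each sample pooled 3 to 6 mice and 500 pg of its RNA was amplified before the array, so a p-value here measures the spread between pools. The labels say that different mice were used in 2 independent experiments, without saying which sample belongs to which.

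A level below is log2 of an array's processed signal minus the 75th percentile of that array, so that 0 is the signal of the probe at that percentile. Levels of different genes come from different probes and are not set against each other. In these pooled cells, a lower level can come from fewer cells with the transcript or from less of it per cell, and these cannot be told apart. The 75th percentile of the signal ran from 80.65 to 340.5 units over the arrays. The arrays lay on 4 slides and were scanned on 2 days, with 13 arrays a day and every group present on both days. Slides 1 and 2 held only mPFC arrays and slides 3 and 4 only NAc arrays, so every region difference below is also a difference between slides. Slides 1 and 3 were scanned on day 1 and slides 2 and 4 on day 2. Within a region, scan day and slide are thus the same split and cannot be told apart. With slide as a random block, 0 of all tested genes passed for region. The WT mPFC R-SDS replicate 3 array stood apart: it was the dimmest, it had the lowest array weight (0.25), and it held the highest level of 6 of the 8 genes. Tlr2 was well above background on 0 of 14 TLR-DKO arrays (levels from -4.60 to -3.46) and on 12 of 12 WT arrays (0.62 to 2.68). The Tlr4 probe was well above background on 14 of 14 TLR-DKO arrays (1.43 to 3.86) and 12 of 12 WT arrays (1.60 to 3.14). Whether that probe lies in the deleted part of Tlr4 is not known here, so it checks nothing about the genotype. All 12 listed microglial markers, Tmem119 and Cx3cr1 among them, were well above background on 26 of 26 arrays.

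Each of the 8 genes was well above background on 26 of 26 arrays. None of them passed the threshold for stress, genotype, region or their interactions. Over 20 comparisons in one limma fit of 8 group means, 0 of 160 gene values had a Benjamini-Hochberg adjusted p below 0.05, and 0 had an unadjusted p below 0.05. The smallest adjusted p was 0.493. The share of all tested genes that passed was also small. It was 0% for stress averaged over the groups, 0.0202% for genotype and 0.897% for region. In the pairs of groups it was 0.00808% for stress in TLR-DKO NAc and in WT mPFC and 0% in WT NAc and TLR-DKO mPFC. For genotype it was 0.0121% in naive mPFC, R-SDS mPFC and naive NAc and 0.00808% in R-SDS NAc. For region it was 0.00404% in both R-SDS genotypes and 0% in both naive ones. The interactions called 0% of genes, except stress by region, with 0.00404%. A count of 0 of 8 is what these shares give for most sets of 8 genes.

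**Figure D1:**
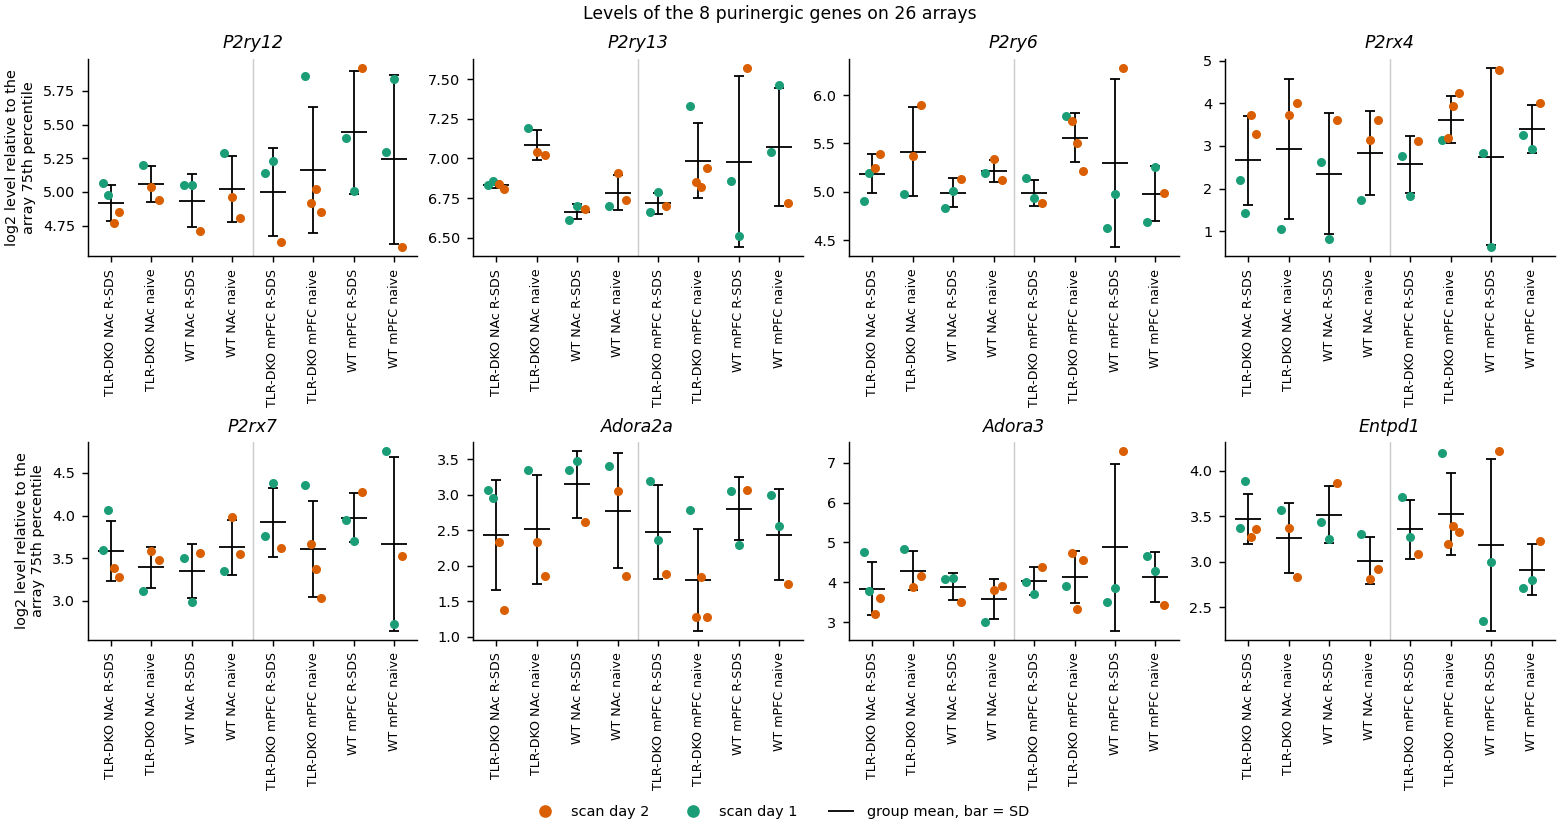
Level of each of the 8 genes on every array, by group (x axis, NAc left of the grey line and mPFC right of it), as log2 signal against the 75th percentile of its own array (y axis, a separate range in each panel). Points are arrays, coloured by scan day, and bars are the group mean and SD. P2ry13 lies within a range of 1.06 on all arrays, while P2rx4 spans 4.17 and its scan day 2 points lie mostly above its scan day 1 points.

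How far a miss at the threshold bounds a change differs widely between the genes. The SD between arrays of a group was 0.25 for P2ry13, and only 0.76% of all tested genes had a smaller one. It was 0.36 for P2ry12, 0.37 for P2ry6, 0.45 for Entpd1 and 0.49 for P2rx7. Adora2a (0.68) lay near the median of all genes (0.76), and Adora3 (0.87) and P2rx4 (1.20) lay above it. For P2ry6 the array carries 10 spots of the probe, whose SD within an array was 0.0414 at the median, against 0.37 between the arrays of a group. Ranked by group mean, each gene had a largest step between neighbouring groups that was smaller than its own SD within groups. This step was 0.14 for P2ry13, 0.20 for P2ry12 and 0.63 for Adora2a. This SD is that of single arrays and not the SE of a difference between group means. For Adora2a that SE was 0.52 between the genotypes in naive mPFC, below its step of 0.63. The order of the groups was not tested step by step for any of the 8 genes.

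Among the ADP receptors, P2ry13 was the most even gene, and its group values separated most often. P2ry13 stood at 6.83, 6.86, 6.84 and 6.81 in TLR-DKO NAc R-SDS samples, against 7.19, 7.04 and 7.02 in TLR-DKO NAc naive samples. In WT NAc it stood at 6.61, 6.70 and 6.68 after R-SDS, against 6.70, 6.91 and 6.74 in naive mice, with the closest pair apart only beyond the printed digits. Within the NAc, every R-SDS sample was below every naive sample of its genotype, and every TLR-DKO sample was above every WT sample of its condition. In the mPFC, P2ry13 stood at 6.66, 6.79 and 6.70 in TLR-DKO R-SDS samples, against 7.33, 6.85, 6.82 and 6.94 in TLR-DKO naive samples, again with no overlap. WT mPFC samples held 6.86, 6.51 and 7.57 after R-SDS, against 7.04, 7.46 and 6.72 in naive mice, and here the naive samples lay inside the range of the R-SDS samples.

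Counted over the 12 comparisons of 2 groups, P2ry13 did not overlap in 6. These were stress in TLR-DKO NAc, WT NAc and TLR-DKO mPFC (lower after R-SDS), genotype in naive and R-SDS NAc (higher in TLR-DKO) and region in R-SDS TLR-DKO mice (higher in the NAc). The other genes gave 3 more such cases. P2ry6 and P2rx4 were lower after R-SDS in TLR-DKO mPFC, and P2rx7 was lower in the NAc of R-SDS WT mice. Together these are 9 of 96 gene values, or 9.38%, against 7.82% over all tested genes and the same comparisons, so separation of the 8 genes as a set was close to the background. The background of separated genes was 4.22% for stress in TLR-DKO NAc, 8.17% in WT NAc, 6.25% in TLR-DKO mPFC and 8.1% in WT mPFC. It was 7.39% and 7.20% for genotype in naive and R-SDS NAc and 5.74% and 9.23% in naive and R-SDS mPFC. It was 4.98% for region in R-SDS TLR-DKO mice and 12.9% for region in R-SDS WT mice. Several of these comparisons share samples and do not add up as separate evidence. The share of all tested genes separated in 6 or more of the 12 was not computed. P2ry13 was also singled out as the highest of the 8, so whether its count is unusual is not known here. In limma, the P2ry13 stress differences were -0.25 ± 0.25 in TLR-DKO NAc, -0.12 ± 0.27 in WT NAc and -0.27 ± 0.25 in TLR-DKO mPFC (SE), with adjusted p of 1, 1 and 0.977. Averaged over the 4 pairs, P2ry13 differed by -0.18 ± 0.13 (95% interval -0.45 to 0.08, adjusted p = 0.969). Without WT mPFC R-SDS replicate 3 this was -0.26 ± 0.11 (adjusted p = 0.722).

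**Figure D2:**
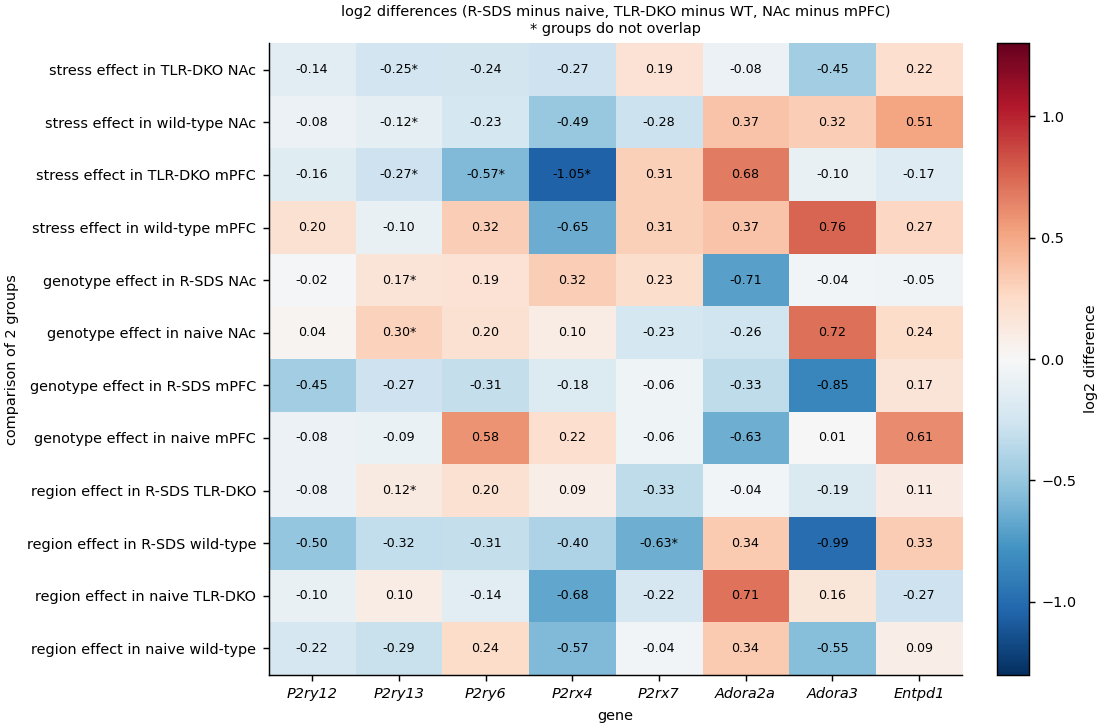
log2 differences of the 8 genes (columns) in the 12 comparisons of 2 groups (rows), as R-SDS minus naive, TLR-DKO minus WT and NAc minus mPFC, with blue below 0 and red above. An asterisk marks groups whose arrays do not overlap, which happens in 9 of 96 cells, 6 of them for P2ry13.

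P2ry12 showed the narrowest intervals after P2ry13 and no separated groups. It stood at 5.07, 4.98, 4.77 and 4.85 in TLR-DKO NAc R-SDS samples, against 5.20, 5.04 and 4.94 in TLR-DKO NAc naive samples. In WT NAc it stood at 5.05, 5.05 and 4.71 after R-SDS, against 5.29, 4.96 and 4.81 in naive mice. All NAc samples thus lay within a narrow band, and R-SDS and naive samples overlapped in both genotypes. In the mPFC the spread was wider, with 5.14, 5.23 and 4.63 in TLR-DKO R-SDS samples, against 5.86, 4.92, 5.02 and 4.85 in TLR-DKO naive samples. WT mPFC samples held 5.40, 5.01 and 5.92 after R-SDS, against 5.30, 5.84 and 4.59 in naive mice. The stress average of P2ry12 was -0.05 ± 0.16, with a 95% interval in fold of 0.766 to 1.23. Its genotype average was -0.13 ± 0.16 (fold 0.724 to 1.16) and its region average -0.23 ± 0.16 (0.675 to 1.08). All 3 intervals include no change.

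The levels of P2ry12 and P2ry13 were correlated over the samples of each scan day. On the 13 arrays of scan day 2 their Pearson r was 0.95 and Spearman's rho 0.83 (permutation test, p for r adjusted over 28 pairs of the 8 genes = 0.00238). On the 13 arrays of scan day 1, r was 0.82 and rho 0.66 (permutation test, adjusted p = 0.0344). Without the 2 arrays farthest from the median of P2ry12, r was 0.75 on day 2 and 0.43 on day 1, so the relation on day 1 rests largely on those 2 arrays. Without WT mPFC R-SDS replicate 3, r on day 2 was 0.77. This was the only one of the 28 pairs with an adjusted p below 0.05 on both days. On day 2 alone P2ry12 with P2ry6 (r = 0.85), P2ry13 with P2ry6 (0.84) and P2rx7 with Adora2a (0.75) passed as well, and on day 1 these stood at 0.54, 0.44 and -0.33 in the same order. The permutations took no account of group or region. The share of all pairs of tested genes that would pass was not computed, so these pairs are not known to be unusual. Dnase2a, picked as the gene closest to P2ry12 over all arrays, had an r with it of 0.87 on day 2 and 0.91 on day 1. Levels also went with array brightness on scan day 2. On scan day 2, r with log2 of the array's 75th percentile was -0.78 for P2ry12, -0.77 for P2ry13 and -0.76 for P2ry6, with higher levels on dimmer arrays. On scan day 1 it was -0.62 for P2ry12, -0.36 for P2ry13 and -0.04 for P2ry6. For P2rx4 it was -0.43 on day 2 and -0.24 on day 1. P2rx7, Adora2a, Adora3 and Entpd1 lay between -0.72 and -0.55 on day 2 and between 0.18 and 0.47 on day 1. The dimmest array, WT mPFC R-SDS replicate 3, was scanned on day 2 and held the highest P2ry12, P2ry13 and P2ry6. The r with brightness was not computed without it. Under quantile normalization, which gives every array one distribution, r of P2ry12 with P2ry13 was 0.62 on day 2 and 0.66 on day 1. The part of array brightness in the relation was not tested.

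**Figure D3:**
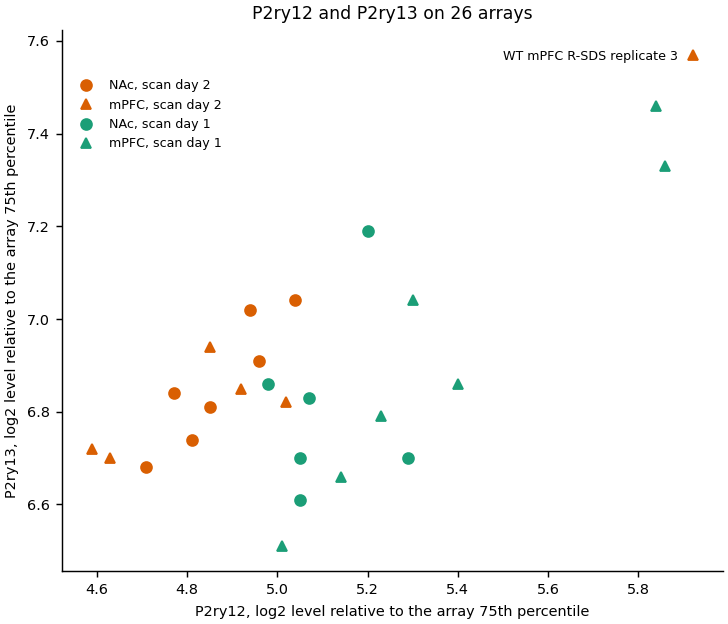
P2ry13 (y axis) against P2ry12 (x axis) on the 26 arrays, both as log2 signal against the 75th percentile of its own array, with scan day as colour and brain region as symbol. The arrays of both days run from lower left to upper right, with WT mPFC R-SDS replicate 3 at 5.92 and 7.57, and 3 mPFC arrays hold the upper right corner.

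P2ry12 and P2ry13 are neighbours on chromosome 3 in RefSeq. Of the 8 genes, 6 had an entry in the RefSeq promoter table (build GRCm38.p6). The 250 bases before the starts of both genes are printed because theirs is the pair of levels correlated on both days. Both lie on the minus strand, at chr3:59262986-59263235 for P2ry12 and chr3:59210883-59211132 for P2ry13, and their starts are 52103 bases apart. Sequences run 5′ to 3′ and end at the base before the start, with capitals at motif matches.
P2ry12: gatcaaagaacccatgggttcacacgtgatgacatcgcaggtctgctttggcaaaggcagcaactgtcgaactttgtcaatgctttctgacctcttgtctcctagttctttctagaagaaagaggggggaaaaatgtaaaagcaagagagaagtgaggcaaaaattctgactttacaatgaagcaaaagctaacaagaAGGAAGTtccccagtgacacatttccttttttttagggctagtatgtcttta
P2ry13: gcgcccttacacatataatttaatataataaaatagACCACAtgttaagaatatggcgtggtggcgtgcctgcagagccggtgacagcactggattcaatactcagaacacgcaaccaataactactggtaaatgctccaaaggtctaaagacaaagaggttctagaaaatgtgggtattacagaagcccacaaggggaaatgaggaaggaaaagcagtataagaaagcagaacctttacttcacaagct
Both windows held 41.6% G and C, below the median of 52.4% over 32851 promoters. Of 4 motifs searched on both strands, the ETS motif AGGAAGT matched P2ry12 once, from -52 to -46 relative to the start. This motif was present in 7.69% of all promoters. The RUNX motif TGTGGT matched P2ry13 once on the opposite strand, from -214 to -209, and was present in 14% of promoters. The AP-1 motif TGANTCA (in 6.75% of promoters) and the TATA motif TATAAA (12.4%) matched neither window. The matches did not overlap, and none of the motifs was shared by both windows.

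The UDP receptor P2ry6 had the lowest unadjusted p of all 160 values, in the interaction of stress and genotype in the mPFC. It stood at 5.14, 4.94 and 4.88 in TLR-DKO mPFC R-SDS samples, against 5.78, 5.73, 5.51 and 5.22 in TLR-DKO mPFC naive samples. In WT mPFC it stood at 4.63, 4.98 and 6.28 after R-SDS, against 4.69, 5.26 and 4.99 in naive mice. The TLR-DKO groups did not overlap and the WT groups did, with one R-SDS array far above the rest. The stress difference was -0.57 ± 0.32 in TLR-DKO mPFC and 0.32 ± 0.34 in WT mPFC, and the interaction was -0.89 ± 0.47 (limma, adjusted p = 0.819). Without WT mPFC R-SDS replicate 3, the WT difference was -0.18 ± 0.29, with the opposite sign, and the interaction was -0.40 ± 0.38. In the NAc the P2ry6 stress differences were -0.24 and -0.23 in TLR-DKO and WT mice.

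Of the ATP-gated channels, P2rx4 varied most. P2rx4, which responds to low ATP, stood at 2.19, 1.43, 3.74 and 3.29 in TLR-DKO NAc R-SDS samples, against 1.04, 3.74 and 4.02 in TLR-DKO NAc naive samples. In WT NAc it stood at 2.62, 0.81 and 3.61 after R-SDS, against 1.73, 3.14 and 3.62 in naive mice. Both NAc pairs overlapped, with low and high arrays in every group. In the mPFC it stood at 2.76, 1.83 and 3.12 in TLR-DKO R-SDS samples, against 3.13, 3.18, 3.93 and 4.24 in TLR-DKO naive samples. WT mPFC samples held 2.83, 0.62 and 4.79 after R-SDS, against 3.26, 2.92 and 4.02 in naive mice. The TLR-DKO mPFC groups came close (3.12 against 3.13) without overlapping, and the WT groups overlapped. The stress average was -0.62 ± 0.45, with a 95% interval in fold from 0.340 to 1.25 (adjusted p = 0.970), so the interval holds reductions down to a fold of 0.340. Without WT mPFC R-SDS replicate 3 the stress average was -0.87 ± 0.42 (limma, adjusted p = 0.757), and the region average was -0.13 ± 0.42 in place of -0.39 ± 0.45.

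P2rx7, the channel that needs high ATP, differed by 0.13 ± 0.20 for stress, -0.03 ± 0.20 for genotype and -0.30 ± 0.20 for region, with folds of 0.816 to 1.47, 0.730 to 1.32 and 0.603 to 1.09 in the 95% intervals. In R-SDS WT mice it stood at 3.5, 2.99 and 3.56 in the NAc, against 3.95, 3.70 and 4.27 in the mPFC, a difference of -0.63 ± 0.42 (adjusted p = 0.682) between groups that did not overlap. The array has 3 probes of P2rx7, assigned to different RefSeq transcripts, and their levels did not follow each other. Over 26 arrays the brightest probe had an r of -0.31 with the second and -0.35 with the third, which was well above background on 17 of 26 arrays. Between the brightest and the second, r was 0.69 on scan day 2 and -0.65 on scan day 1. None of the 3 probes passed the threshold in a fit over all 34732 tested probes, and their stress averages were 0.13 ± 0.21, 0.02 ± 0.40 and 0.05 ± 0.59. A statement on P2rx7 is therefore one on a single transcript probe.

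The adenosine receptors differed in where their spread lay. Adora2a, a receptor coupled to the stimulation of cAMP, had the lowest unadjusted p of the 8 genes for genotype. It stood at 3.07, 2.95, 2.33 and 1.38 in TLR-DKO NAc R-SDS samples and 3.35, 3.47 and 2.61 in WT NAc R-SDS samples. Naive NAc samples held 3.35, 2.33 and 1.85 in TLR-DKO mice and 3.41, 3.05 and 1.86 in WT mice. The genotypes overlapped in both conditions. In the mPFC it stood at 3.19, 2.36 and 1.88 in TLR-DKO R-SDS samples and 3.05, 2.29 and 3.07 in WT R-SDS samples. Naive mPFC samples held 2.79, 1.28, 1.84 and 1.28 in TLR-DKO mice and 3.00, 2.56 and 1.74 in WT mice. The TLR-DKO mean was below the WT mean in all 4 pairs of groups, while the arrays overlapped in each of them. The average was -0.49 ± 0.27 (95% interval -1.04 to 0.07, unadjusted p = 0.084, adjusted p = 0.652). With scan day in the fit, the naive mPFC difference was -0.26 ± 0.38 in place of -0.63 ± 0.52. That in R-SDS NAc was -0.56 ± 0.37 in place of -0.71 ± 0.52. The differences in R-SDS mPFC (-0.33) and naive NAc (-0.26) were the same in both fits.

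For region, Adora2a differed by 0.34 ± 0.27 (NAc minus mPFC, adjusted p = 0.574), and by 0.43 ± 0.19 with scan day in the fit (unadjusted p = 0.0357, adjusted p = 0.234). Adora2a is also abundant in the striatal neurons that surround NAc microglia. Of 12 listed markers of these neurons, 7 were tested, and 0 passed the threshold for region. Their mean level on an array ran from -1.28 to 0.01 in the NAc and from -1.42 to -0.20 in the mPFC. Penk had the highest difference among them (1.89 ± 0.64, adjusted p = 0.168), Drd2 differed by -0.60 ± 0.37, and Drd1 and Tac1 were well above background on 5 of 26 arrays each. Their part in the Adora2a value was not tested.

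Adora3, a receptor coupled to the inhibition of cAMP, had a stress average of 0.13 ± 0.33, a genotype average of -0.04 ± 0.33 and a region average of -0.39 ± 0.33. Without WT mPFC R-SDS replicate 3 these were -0.17 ± 0.22, 0.26 ± 0.22 and -0.09 ± 0.22, so the signs for stress and genotype turned. WT mPFC samples held 3.5, 3.86 and 7.28 after R-SDS, against 4.66, 4.28 and 3.44 in naive mice. One array set the WT mPFC R-SDS mean. With that array the stress difference in WT mPFC was 0.76 ± 0.69, and without it -0.44 ± 0.50, so the direction rests on 1 array. In the other groups Adora3 ran from 3.00 to 4.84.

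Entpd1, the enzyme that removes ATP and ADP, had a stress average of 0.21 ± 0.19 (fold 0.879 to 1.52 in the 95% interval) and a genotype average of 0.24 ± 0.19 (0.901 to 1.56). In the NAc it stood at 3.44, 3.25 and 3.86 in WT R-SDS samples, against 3.30, 2.81 and 2.92 in WT naive samples, which overlapped in a small range. That difference was 0.51 on the log2 scale. In naive mPFC it stood at 4.19, 3.19, 3.39 and 3.32 in TLR-DKO mice, against 2.71, 2.80 and 3.23 in WT mice, a difference of 0.61. Neither passed the threshold. The region average was 0.07 ± 0.19. Without WT mPFC R-SDS replicate 3 the averages were 0.08 ± 0.16 for stress, 0.37 ± 0.16 for genotype and 0.20 ± 0.16 for region. None of these passed either (limma, adjusted p = 0.966, 0.606 and 0.616 in the same order).

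**Figure D4:**
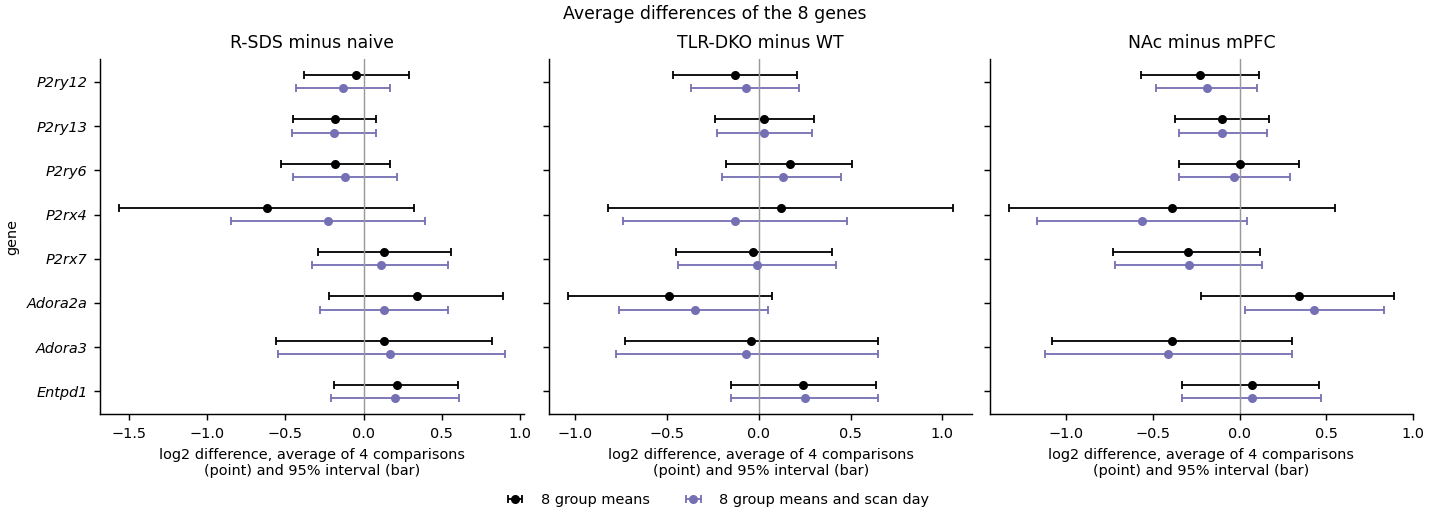
Average log2 difference of each of the 8 genes (rows) for R-SDS minus naive, TLR-DKO minus WT and NAc minus mPFC (panels), with 95% intervals, from the fit of 8 group means (black) and with scan day added (purple). All black intervals include 0, the purple interval of Adora2a for NAc minus mPFC runs from 0.03 to 0.83, and those of P2rx4 and Adora2a are shorter with scan day in the fit.

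Between the scan days 2 of the 8 genes differed, in opposite directions. A scan day is the time an array was read and is not known to be the day of the sort or extraction. Within each region the 2 days are also 2 slides, so a difference between days is also one between slides. P2rx4 was higher on scan day 2, at 3.14 to 4.02 (median 3.62, 7 arrays) in the NAc, against 0.81 to 2.62 (median 1.58, 6 arrays) on scan day 1. In the mPFC it ran from 3.12 to 4.79 (median 3.97, 6 arrays) on day 2, against 0.62 to 3.26 (median 2.83, 7 arrays) on day 1. The days did not overlap in the NAc and overlapped between 3.12 and 3.26 in the mPFC. With the 8 groups in the fit the difference was 1.68 ± 0.31, a 3.20-fold higher signal (limma, adjusted p = 0.000955). Adora2a fell by 0.90 on the log2 scale (SE 0.20, adjusted p = 0.00432), running from 1.28 to 3.07 (median 1.86) on day 2, against 2.29 to 3.47 (median 3.05) on day 1. The share of all tested genes that passed for scan day was 18%, so 2 of 8 is near the background. In the NAc alone 1599 of the 24738 tested genes passed for scan day, and in the mPFC alone 284. Within the regions, P2rx4 differed by 1.99 ± 0.33 in the NAc (adjusted p = 0.013) and 1.35 ± 0.50 in the mPFC (adjusted p = 0.186), and Adora2a by -1.06 ± 0.25 (adjusted p = 0.0373) and -0.73 ± 0.33 (adjusted p = 0.267). P2ry12 differed by -0.37 ± 0.15 (adjusted p = 0.0921), P2ry6 by 0.27 ± 0.16 (adjusted p = 0.273), and P2ry13, P2rx7, Adora3 and Entpd1 had differences between -0.11 and 0.19.

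The scan day bears on the comparisons because the groups hold unequal numbers of arrays of each day. With scan day in the fit, the P2rx4 stress average was -0.23 ± 0.30 in place of -0.62 ± 0.45, and that of Adora2a 0.13 ± 0.20 in place of 0.34 ± 0.27. The stress difference of P2rx4 in TLR-DKO mPFC, where the groups had not overlapped, was -0.35 ± 0.57 in place of -1.05 ± 0.87. The P2rx4 region average was -0.56 ± 0.29 in place of -0.39 ± 0.45. With scan day in the fit, 0 of the 8 genes passed the adjusted threshold in the 20 comparisons, and 1 of 160 values, Adora2a for region, had an unadjusted p below 0.05. Of all tested genes, 0.00808% passed for the stress average, 0.0283% for the genotype average, 1.78% for the region average and at most 0.0162% in a pair of groups (genotype in R-SDS mPFC), where stress in WT mPFC called 0.0121%. The stress average of P2ry13 was -0.19 ± 0.13 with scan day in the fit.

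**Figure D5:**
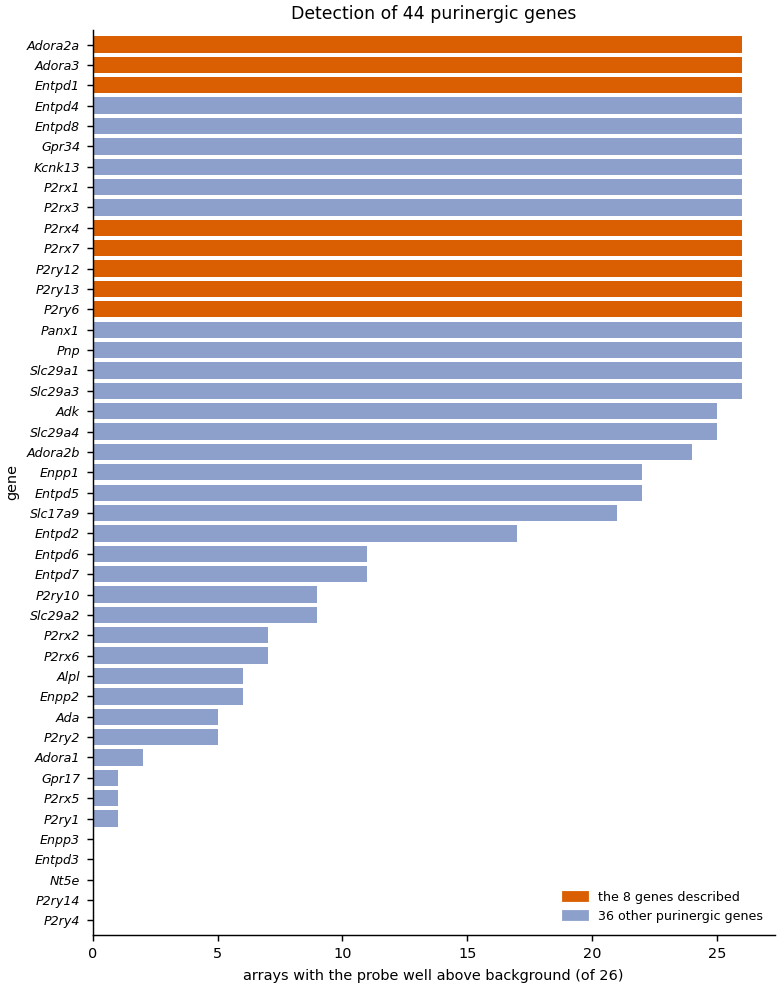
Number of the 26 arrays (x axis) on which the brightest probe of each purinergic gene (y axis) was well above background, with the 8 genes described in orange and 36 others in blue. All 8 reach 26 arrays, as do 10 of the others, and 5 of the others are at 0.

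The rest of the purinergic system was less fully detected, though both lists were chosen with earlier results of these data known. The share of all genes well above background on all 26 arrays was not computed. Of 36 further genes, 10 were well above background on all 26 arrays. They included P2rx1, the P2Y-like receptor Gpr34, the ATP-release channel Panx1, the potassium channel Kcnk13, the nucleoside transporters Slc29a1 and Slc29a3 and the enzyme Pnp, which breaks down nucleosides. P2rx3, known as a channel of sensory neurons, was also above background on every array, at 5.34 to 6.24. Nt5e, the enzyme that turns AMP into adenosine, was well above background on 0 of 26 arrays, as were Entpd3, Enpp3, P2ry4 and P2ry14. The ADP receptor P2ry1 was so on 1 array and the adenosine receptor Adora1 on 2. The genes named here for their detection were also picked after it was seen. A probe not well above background has only an upper bound here.

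Of the 36 genes, 20 could be tested, and 0 passed the limma threshold in any of the 20 comparisons. For stress, 8 were above 0 and 12 below, with a median of -0.04 against 0.04 over all tested genes, and 0 had an unadjusted p below 0.05. For genotype, 7 were above 0 and 13 below (median -0.12, all genes -0.09), with 3 of 20 at an unadjusted p below 0.05, against 8.23% of all tested genes. Slc17a9, the vesicular nucleotide transporter, differed by 1.71 ± 0.66 (adjusted p = 0.512), Entpd5 by 1.51 ± 0.66 and Entpd8 by -0.49 ± 0.21 (adjusted p = 0.563 both). For region, 8 were above 0 and 12 below (median -0.12, all genes -0.06), with 2 of 20 at an unadjusted p below 0.05, Adk at -0.67 ± 0.25 and Entpd8 at 0.47 ± 0.21. That share is below the 15.4% of all tested genes. These 5 values were singled out after they were seen.

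The Nlrp3 inflammasome, which P2rx7 can trigger, was measured through 10 genes, all tested, and 0 passed in any of the 20 comparisons. For stress, 8 were above 0 and 2 below, with a median of 0.35 against 0.04 over all tested genes, and 0 had an unadjusted p below 0.05. Il1b differed by 0.88 ± 0.56, Il1a by 0.82 ± 0.43, Txnip by 0.86 ± 0.42 and Nlrp3 by 0.38 ± 0.28, while Gsdmd (-0.28 ± 0.33) and Pycard (-0.10 ± 0.20) were the 2 below 0. For genotype the median was -0.14 (all genes -0.09), with 2 of 10 at an unadjusted p below 0.05 (8.23% of all tested genes), Nlrp3 at 0.67 ± 0.28 (adjusted p = 0.536) and Txnip at -1.11 ± 0.42 (adjusted p = 0.485). These genes were singled out after their values were seen, and none passed the threshold.

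The genes whose levels followed each of the 8 most closely over the 26 arrays were different ones each time. The 3 closest to P2ry12 were Dnase2a (r = 0.91), Acod1 (0.89) and Bex3 (0.88). For P2ry13 they were Rnaset2a (0.83), Sting1 (0.82) and Ltbr (0.81), and for P2ry6 Erp29 (0.83), Ctsd (0.83) and H2-DMa (0.82). P2rx4 was closest to Adam15 (0.85), Siglech (0.83) and Tbc1d22a (0.82), and P2rx7 to Gapdhs (0.70), Il22ra1 (0.69) and Lgals8 (0.68). For Adora2a Orai2 (0.94) and Nuak2 (0.92) are given, for Adora3 Isoc2b (0.79), St3gal6 (0.77) and Ltc4s (0.77), and for Entpd1 Slc2a4 (0.72), Zfp81 (0.72) and Anxa6 (0.71). Orai2 kept an r of 0.86 on scan day 2 and 0.90 on day 1 with Adora2a, and Isoc2b one of 0.90 and 0.03 with Adora3. These were picked as the highest of all tested genes with a RefSeq symbol. The arrays differ in brightness and scan day, which all genes of an array share, and r is given as a description.

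Of 8 listed markers of perivascular macrophages, which also carry the EGFP allele, 1 passed the threshold for region. This was F13a1, at -5.55 ± 0.98 (NAc minus mPFC, limma adjusted p = 0.0122), a call lost with slide as a random block. All 8 values were below 0, with a median of -2.54 (all genes -0.06). Their mean level on an array ran from -5.24 to -1.05 in the NAc and from -2.23 to 1.71 in the mPFC. Of 4 tested endothelial and mural markers, 3 were below 0 and 1, Cldn5, passed (-0.93 ± 0.22, adjusted p = 0.0458). None of the tested markers of the other cell types passed, in the fit of 8 group means. Astrocyte markers had a median of -0.99, with 5 of 7 below 0 and 3 at an unadjusted p below 0.05. Among these, Gfap stood at -1.64 ± 0.45 (adjusted p = 0.0792). Neuronal markers had a median of -0.64, with 5 of 5 below 0 and 1 at an unadjusted p below 0.05. Monocyte and granulocyte markers had 2 of 2 below 0 (median -0.79), T and NK cell markers 4 of 4 above 0 (median 0.34), and oligodendrocyte markers 5 of 7 above 0 (median 0.15). Of the 8 purinergic genes, 6 had a region average below 0 and 2 above, where the median over all genes was also below 0 (-0.06). Among the 6 is P2ry6, at a fold of 0.998. Of the listed microglial markers, Sall1 (0.31 ± 0.14) and Selplg (0.32 ± 0.22) were above 0 and the others below, so this direction is not particular to the purinergic genes. The part of these cells in the purinergic values was not tested.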

How the data were processed

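Agilent single-colour arrays of 26 pooled microglia samples in 8 groups were analysed. The deposited scanner files hold spot intensity on a linear scale, background-subtracted, written per the file headers by Feature Extraction 11.0.1.1 (Agilent). The deposited matrix of log2 values matched the scanner values (r of 1 on each array, column medians from -2.90 to -2.21), with a constant of at most 0.062 between them, and served as an alternative. It is thus log2 of the processed signal with the array's 75th percentile as centre.

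Computed here: each array's 75th percentile was subtracted from log2 of its processed signal, without control spots and outlier flags, averaged over spots of a probe. Accessions were named through RefSeq (GRCm38.p6; 28026 of 29796 matched). The file headers give build mm9, so only promoter coordinates of the RefSeq table are printed. Probes entered the test if 3 or more arrays of a group showed them well above background; the brightest stood for its gene. limma 3.58.1 (R 4.3.3) fitted 8 group means, two-sided, Benjamini-Hochberg over 24738 genes, threshold 0.05; the scripts were tested on simulated data. Scan day was added as a term in a further fit. Correlations used 100000 permutations (scipy).

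All 8 genes are named. Further purinergic and inflammasome genes were to be named if they passed, and otherwise counted; none passed, and those given with values were picked after these were seen; per gene, the 3 most alike genes are named, of which 1 is not reported here. The members and lists were chosen with earlier results of these data known. Replicate numbers were given to groups by the labels without a stated pairing, and no pairing was used. Deviations of same-numbered R-SDS and naive arrays of one genotype and region correlated between -0.14 and 0.18 over 12 pairs. Same-numbered NAc and mPFC arrays were not compared, so a pairing between regions was not tested. The files lack the mean-signal column, so normexp used the median signal. The number of arrays limits the precision.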

Additional observations from a re-analysis of the deposited data

Results flagged for a closer look

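In the groups of 4 samples, 2 of 16 gene and group combinations held a sample far from the other 3 (the gap to its neighbour over the range of the group was above Dixon's critical value); chance alone gives about 1 in 20. Entpd1 stood at 3.88 in one TLR-DKO NAc R-SDS sample, while the other samples of the group ran from 3.27 to 3.37 (gap over range 0.836). P2ry12 stood at 5.86 in TLR-DKO mPFC naive replicate 1, while the others ran from 4.85 to 5.02 (0.832). That array also held the group's highest Entpd1 (4.19) and P2ry13 (7.33) and had an array weight of 0.47, second lowest of the 26. Both ratios lie close to the limit. TLR-DKO mPFC naive replicate 1 was also the only array of its group on slide 1 and scan day 1. P2ry12 differed by -0.37 ± 0.15 between the scan days. Within this group, a sample that stands apart and the scan day cannot be told apart. The share of all tested genes flagged by this rule was not computed.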

How the results depend on the processing

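The count of 0 of 8 genes past the threshold held under every alternative run, in all 20 comparisons or in those that could be fitted (10 with slide as a block or 1 scan day, 5 on 1 slide): background correction with normexp, quantile normalization, median centring, the deposited matrix, no filter on dim probes or a stricter one, the mean of a gene's probes, only the groups compared, array weights, slide as a block or random block, scan day as a block or alone, each slide alone, the replicate block and each array left out. Over 6400 gene values so obtained, 455 had the other sign than in the 8-group fit. Adora3 for region in R-SDS WT mice ran from -3.79 to 0.41 over the alternatives other than leaving out an array. On scan day 2 alone it sets 1 NAc array (3.5) against WT mPFC R-SDS replicate 3 (7.28). Without that replicate the 8-group value was 0.21 ± 0.50, in place of -0.99 ± 0.69. Single slides and days leave few arrays, so 0 there says nothing. Slide as a block and scan day as a block split the arrays of a region in the same way and are not separate checks. With the replicate block the count was 0 in each comparison; the numbers were not shown to pair samples. For scan day, 2 of 8 genes passed, and 0 in the mPFC alone, where 284 of all 24738 tested genes passed. P2rx4 ran from 1.50 to 1.83 and Adora2a from -1.07 to -0.83 with each array left out, and both passed every time. P2ry12 also passed for scan day under quantile normalization (-0.49, adjusted p = 0.00223), normexp (-0.40, 0.0146) and array weights (-0.42). The r of P2ry12 with P2ry13 ran from 0.77 to 0.97 on day 2 and from 0.72 to 0.89 on day 1 with each array left out; under the other normalizations it stayed above 0.6. The genes called over all 24738 for region were 222, with 441 when scan day was in the fit, 447 with array weights, 128 with no filter, 86 with median centring, 10 under normexp, 0 with slide as a random block, 1 and 0 on scan days 2 and 1 alone, and 65 to 371 with each array left out. Array weights called 14 genes in place of 5 for genotype, 10 in place of 0 for stress and 13 in place of 3 for genotype in R-SDS mPFC. The cause was not tested. On scan day 2 alone, region in R-SDS WT mice sets 1 NAc array against 1 mPFC array, WT mPFC R-SDS replicate 3. No count of genes is given for it.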
